A study of Mus musculus with 15 samples.

Results

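The genes described here are 8 inflammasome genes of the mouse kidney (Aim2, Nlrp3, Pycard, Casp1, Casp4, Gsdmd, Il18 and Il1b), of 16055 genes tested on the same arrays. They were chosen by name, and a probe was counted as a member's where the RefSeq accession in the array annotation belongs to that gene. The probe with the highest mean signal stood for each gene. All 8 had a probe on the array and passed the filter on dim probes, which kept probes that 3 or more arrays measured above their background. Aim2 was singled out by its own values, since it ranked first of all genes by p for surgery on the high-fat diet. That comparison is therefore given as a description for every member, with no test, and so is every difference of Aim2.

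The study crossed a diet with the removal of a kidney in male C57/BJ mice. Surgery was done at 6 weeks of age, the diet was fed for 20 weeks, and RNA of frozen kidney was then hybridised with Cy3 label to 1-colour Agilent arrays, 1 array per mouse. The groups were HFD-UNX (high-fat diet, left kidney removed, 4 arrays), HFD-sham (high-fat diet, kidney manipulated and left in place, 3 arrays), LFD-UNX (low-fat chow, left kidney removed, 4 arrays) and LFD-sham (low-fat chow, kidney manipulated, 4 arrays). The labels state 6 mice in each group. The labels name no transgene or deletion, and all mice were operated on, so no group is without surgery.

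An inflammasome is a protein platform in the cytosol that turns a danger signal into inflammation. A sensor such as AIM2, which binds double-stranded DNA in the cytosol, or NLRP3, which answers to potassium loss, crystals and other stress, recruits the adaptor ASC (the product of Pycard). ASC gathers and activates caspase-1, which cuts the precursors of interleukin-1 beta and interleukin-18 and cuts gasdermin D, whose freed part makes pores in the plasma membrane. Mouse caspase-11 (the product of Casp4) binds bacterial lipopolysaccharide and cuts gasdermin D as well. In the kidney the pathway is best known from macrophages and dendritic cells, while interleukin-18 is also made by tubule epithelium.

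Start-region sequences were available from RefSeq (GRCm38.p6) for 7 of the 8 members, each of 300 bases around the annotated start, most of them before it. They are shown for Aim2, on which the surgery comparison turned, for Pycard, the member that was lower between diets in sham mice, and for Il1b, the member that was lower with both treatments. Capitals mark the letters GAGGAAGT, a core of sites for PU.1, a transcription factor of myeloid and B cells, or their reverse complement. The windows are chr1:173420354-173420653 (plus strand) for Aim2, chr7:127993818-127994117 (minus strand) for Pycard and chr2:129371090-129371389 (minus strand) for Il1b, each written 5′ to 3′ along its gene.
Aim2: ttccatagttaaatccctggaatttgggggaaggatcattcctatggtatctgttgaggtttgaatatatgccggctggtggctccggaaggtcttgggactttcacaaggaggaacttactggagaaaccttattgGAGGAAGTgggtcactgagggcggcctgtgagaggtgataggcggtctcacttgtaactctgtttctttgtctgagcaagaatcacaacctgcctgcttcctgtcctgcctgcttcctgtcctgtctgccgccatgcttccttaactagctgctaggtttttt
Pycard: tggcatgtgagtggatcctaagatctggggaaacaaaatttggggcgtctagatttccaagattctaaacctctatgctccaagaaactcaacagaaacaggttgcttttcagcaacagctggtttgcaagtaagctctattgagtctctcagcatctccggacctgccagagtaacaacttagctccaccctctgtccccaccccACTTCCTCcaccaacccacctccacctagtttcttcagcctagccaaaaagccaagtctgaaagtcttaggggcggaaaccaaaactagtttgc
Il1b: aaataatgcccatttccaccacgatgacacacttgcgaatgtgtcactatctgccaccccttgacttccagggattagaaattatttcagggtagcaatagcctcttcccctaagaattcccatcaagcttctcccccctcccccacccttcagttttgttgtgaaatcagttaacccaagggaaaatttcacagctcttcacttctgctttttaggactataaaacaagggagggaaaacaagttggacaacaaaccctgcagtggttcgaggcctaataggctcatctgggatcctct

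Searched on both strands, GAGGAAGT began at -113 from the Aim2 start on the gene's own strand, and its reverse complement lay in the Pycard window at -44. No other window of a member held it, and 3.20% of 32851 start windows of mouse genes did. None of the members' windows held a 10-letter core of the interferon-stimulated response element (in 3.44% of all windows), the interferon-gamma activated site TTCNNNGAA (in 8.30%) or a 10-letter NF-kappaB site (in 0.155%). These are matches of letters in a window and were not measured as binding.

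The arrays bear the label kidney. All 6 listed proximal tubule markers, all 6 of the distal nephron, all 4 of podocytes and all 4 of endothelium were well above background on all 15 arrays. Levels are given below as normalised log2 intensity: log2 of the processed signal minus the 75th percentile of the array, so that 0 is the level of a bright probe. Levels of different probes are not comparable with each other. The share of spots well above background was 69.4% to 70.3% on HFD-UNX, 65.7% to 73.4% on HFD-sham, 60.5% to 65.6% on LFD-UNX and 60.7% to 64.4% on LFD-sham arrays. The lowest level that counted as well above background, the floor, ran from -6.51 to -6.18, -7.19 to -6.07, -5.94 to -5.32 and -5.81 to -5.22 in the same groups. All high-fat arrays were scanned on the first scan day and all low-fat arrays on the second, so diet and scan day cannot be told apart. The LFD-UNX and LFD-sham arrays also lay on separate slides, so slide and surgery cannot be told apart on that diet, whereas slides 1 and 2 each held arrays of both high-fat groups.

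**Figure D1:**
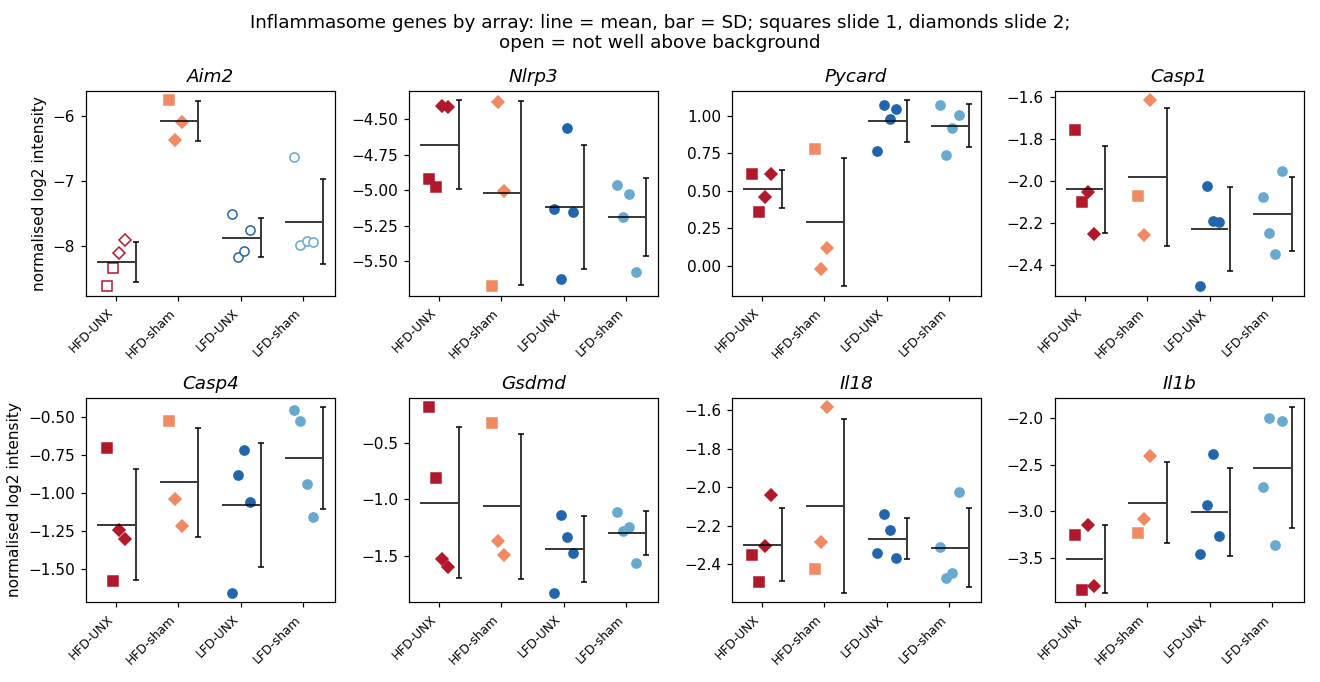
Normalised log2 intensity (vertical axis, scaled separately for each gene) of the 8 inflammasome genes on each of the 15 arrays, by group. Points are arrays, horizontal lines means and bars SD; squares are slide 1, diamonds slide 2, and open points arrays on which the probe was not well above background. Aim2 has filled points only on the 3 HFD-sham arrays, from -6.37 to -5.76.

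Aim2 was well above background on all 3 HFD-sham arrays and on 0 of the other 12. Its level was -8.61, -8.34, -8.10 and -7.91 on the HFD-UNX arrays, against -5.76, -6.37 and -6.09 on the HFD-sham arrays. It was -7.50, -8.16, -8.07 and -7.75 on the LFD-UNX arrays, and -6.63, -7.98, -7.92 and -7.94 on the LFD-sham arrays. The HFD-sham values lay above those of every other array, and the 1 array nearest to them was LFD-sham replicate 1. Because the probe passed the filter on dim probes through exactly the 3 HFD-sham arrays, it had to differ between that group and the others, and its difference is no support for a change.

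On the high-fat diet, Aim2 averaged -8.24 ± 0.31 in HFD-UNX kidneys (SD, n = 4) and -6.07 ± 0.31 in HFD-sham kidneys (SD, n = 3). The measured difference was -2.17 on the log2 scale. Since the HFD-UNX values are below what these arrays call measured, its size is only bounded. Against a mean floor of -6.40 the HFD-UNX mean was at least 1.25-fold lower than the HFD-sham mean, which describes the values that chose the gene and does not hold for every array, as HFD-sham replicate 2 lay below the floor of HFD-UNX replicate 2. The difference was -2.72 within slide 1 and -1.77 within slide 2. Whether this reflects fewer cells that carry Aim2 RNA or less of it per cell cannot be told apart in whole-kidney RNA, here and for every gene below.

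Between diets, the measured Aim2 levels differed by 1.55 in sham mice (HFD-sham minus LFD-sham) and by -0.37 in uninephrectomised mice (HFD-UNX minus LFD-UNX). No fold is given for sham mice, because the HFD-sham mean of -6.07 lay below the floor of every low-fat array, so that a level of that height would not have counted as measured there. The difference between the surgery effects on the 2 diets was -1.92, and HFD-UNX minus LFD-sham was -0.62. On the low-fat diet Aim2 averaged -7.87 ± 0.30 in LFD-UNX kidneys and -7.62 ± 0.66 in LFD-sham kidneys (SD, n = 4 each), a measured difference of -0.25. No array of either group was above background, so there is no test of Aim2 in this comparison.

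The signals behind these levels were small. The processed signal of the Aim2 spot was 2.82, 3.74, 3.71 and 6.03 intensity units on the HFD-UNX arrays and 12.4, 15.1 and 48.0 on the HFD-sham arrays. It was 9.61, 6.70, 6.69 and 6.98 on the LFD-UNX arrays and 13.6, 6.94, 6.83 and 7.50 on the LFD-sham arrays. In units alone, LFD-sham replicate 1 thus reached the range of the HFD-sham arrays. Set against the median of the 153 negative control spots of the same array, the Aim2 spot was at 0.875 to 1.54 times that median on HFD-UNX, 4.50 to 8.64 times on HFD-sham, 0.868 to 0.892 times on LFD-UNX and 0.886 to 1.44 times on LFD-sham arrays. This ratio reads the same spots that passed the filter and is no separate support.

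Before background subtraction the median pixel of the Aim2 spot was 32.5 to 38 units on HFD-UNX, 40 to 90 on HFD-sham, 65.5 to 78.5 on LFD-UNX and 74.5 to 89.5 on LFD-sham arrays, with a local background of 17 to 23 on all 15. The raw spots of the low-fat arrays were therefore as bright as those of the HFD-sham arrays, and the order of the groups in the processed signal was not the order of the raw spots. The raw medians were also corrected by the normexp method, which models background and adds an offset of 50. The Aim2 difference was then 0.08 for surgery on the high-fat diet and -0.11 for diet in sham mice. Added to spots this dim, an offset of 50 shrinks any difference, so the sign of these small values is not read.

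**Figure D2:**
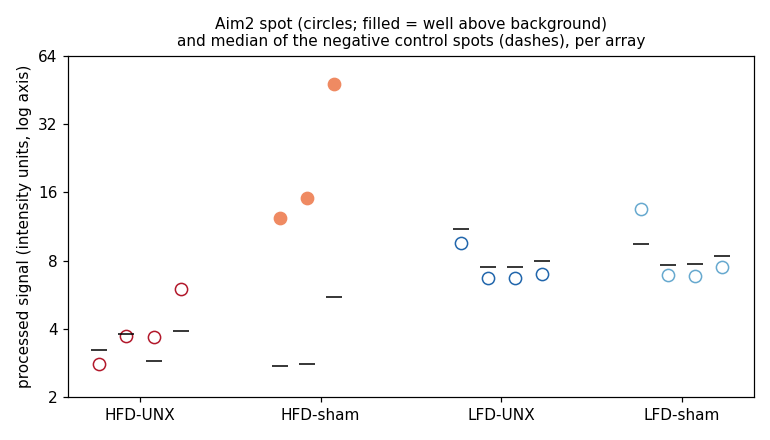
Processed signal of the Aim2 spot on each array (circles, intensity units on a log axis; filled where well above background) and the median of the 153 negative control spots of the same array (dashes), by group. The 3 HFD-sham circles stand at 4.50 to 8.64 times their dash, while the other 12 lie at 0.868 to 1.54 times theirs.

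Nlrp3, the sensor of potassium loss and crystals, was well above background on all 15 arrays by its brighter probe and did not pass in any comparison. Its level was -4.92, -4.98, -4.40 and -4.41 on HFD-UNX arrays, -5.68, -4.37 and -5.01 on HFD-sham arrays, -5.13, -5.62, -4.56 and -5.15 on LFD-UNX arrays, and -4.96, -5.19, -5.02 and -5.58 on LFD-sham arrays. All 4 groups overlapped. The diet difference was 0.17 in sham mice (95% interval -0.47 to 0.81, adjusted p = 0.745) and 0.44 in uninephrectomised mice (-0.15 to 1.03, adjusted p = 0.311). Surgery on the low-fat diet gave 0.07 (-0.52 to 0.66, adjusted p = 1.00), and surgery on the high-fat diet 0.34. The interaction was 0.27 (adjusted p = 1.00), and HFD-UNX minus LFD-sham was 0.51 (adjusted p = 0.210).

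A second, dimmer Nlrp3 probe differed from the first in its diet values. It was well above background on 3 of 4 HFD-UNX and 2 of 3 HFD-sham arrays and on 0 of the 8 low-fat arrays, with means of -5.77, -5.99, -7.25 (LFD-UNX) and -7.37 (LFD-sham). Its diet differences were 1.38 in sham and 1.48 in uninephrectomised mice, set against low-fat values below background. The dimmer probe passed the filter on dim probes through high-fat arrays alone, so its diet differences are no support for a change. With the mean over both probes, Nlrp3 was higher on the high-fat diet by 0.78 in sham and 0.96 in uninephrectomised mice. With both treatments against neither that mean was higher by 1.06. These values take in the dimmer probe and are given as a description, with no test.

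Pycard, the adaptor that joins sensors to caspase-1, fell on the high-fat diet in sham mice. Its level was 0.78, -0.02 and 0.12 on the HFD-sham arrays, against 1.07, 0.74, 0.92 and 1.01 on the LFD-sham arrays. The groups overlapped through HFD-sham replicate 1, which stood above LFD-sham replicate 2. The means were 0.29 ± 0.43 in HFD-sham kidneys (SD, n = 3) and 0.94 ± 0.14 in LFD-sham kidneys (SD, n = 4), a difference of -0.64 (SE 0.17, 95% interval -1.01 to -0.27, limma adjusted p = 0.0266). The call was lost with the slide as a random effect (-0.61, adjusted p = 0.294), with normexp (-0.58, 0.133) and with only the 2 groups in the fit (adjusted p = 0.0992). It was also lost without LFD-sham replicate 1 (-0.60, adjusted p = 0.0674), 3 (-0.65, 0.0590) or 4 (-0.62, 0.0588), or without HFD-sham replicate 2 (-0.49, 0.111) or 3 (-0.56, 0.0697), so 5 of the 7 arrays decide it.

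In uninephrectomised mice the same gene was 0.61, 0.36, 0.46 and 0.61 on the HFD-UNX arrays, against 0.77, 1.07, 0.98 and 1.04 on the LFD-UNX arrays. Every HFD-UNX array was below every LFD-UNX array, as for 11.1% of all genes in this direction. The means were 0.51 ± 0.13 in HFD-UNX and 0.97 ± 0.14 in LFD-UNX kidneys (SD, n = 4 each). The difference of -0.46 (SE 0.16, 95% interval -0.80 to -0.11) did not pass (adjusted p = 0.0733), but it did with slides 1 and 2 as a fixed block (-0.46, adjusted p = 0.0346), with array weights (-0.47, 0.00702) and with only these groups in the fit (0.0438). With the slide as a random effect the adjusted p was 0.485. HFD-UNX minus LFD-sham was -0.42 (adjusted p = 0.0770), also without overlap, as for 11.6% of all genes.

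Pycard was also compared between surgeries. On the low-fat diet the difference was 0.03 (95% interval -0.31 to 0.38, adjusted p = 1.00). On the high-fat diet it was 0.22, with -0.30 within slide 1 and 0.49 within slide 2. The interaction was 0.19 (adjusted p = 1.00).

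Casp1, whose product cuts the interleukin precursors, lay between -2.50 and -1.61 on all arrays. It was -1.75, -2.10, -2.05 and -2.25 on HFD-UNX arrays, -2.07, -2.25 and -1.61 on HFD-sham arrays, -2.50, -2.02, -2.19 and -2.20 on LFD-UNX arrays, and -2.08, -2.25, -2.35 and -1.95 on LFD-sham arrays. No group stood apart. The diet differences of 0.18 (95% interval -0.20 to 0.55, adjusted p = 0.542) in sham and 0.19 (-0.16 to 0.54, adjusted p = 0.472) in uninephrectomised mice did not pass. Surgery gave -0.07 on the low-fat diet (-0.42 to 0.28, adjusted p = 1.00) and -0.06 on the high-fat diet.

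Casp4, the mouse caspase-11 gene, was measured by a pair of probes that were well above background on all 15 arrays. By the brighter probe the group means were -1.21 ± 0.37 in HFD-UNX, -0.93 ± 0.36 in HFD-sham, -1.08 ± 0.41 in LFD-UNX and -0.77 ± 0.34 in LFD-sham kidneys (SD, n = 4, 3, 4 and 4). The other probe gave -1.54, -1.35, -1.66 and -1.28 in that order of groups. Both probes were lower after uninephrectomy on each diet by their means, with overlapping arrays. By the brighter probe surgery gave -0.31 on the low-fat diet (95% interval -0.83 to 0.22, adjusted p = 1.00) and -0.28 on the high-fat diet. The diet differences were -0.16 in sham (adjusted p = 0.732) and -0.13 in uninephrectomised mice (adjusted p = 0.763).

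Gsdmd, which encodes the pore-forming gasdermin D, had its highest values on slide 1. On slide 1 it was -0.18 (HFD-UNX replicate 1), -0.81 (HFD-UNX replicate 2) and -0.32 (HFD-sham replicate 1). On slide 2 it was -1.53 and -1.60 (HFD-UNX replicates 3 and 4) and -1.37 and -1.49 (HFD-sham replicates 2 and 3). The arrays of slide 1 were thus all above those of slide 2, in both surgery groups. This split was seen in the values, and the share of all genes that split by slide was not computed, so nothing is read from it. Low-fat arrays ran from -1.83 to -1.14 in LFD-UNX and from -1.57 to -1.11 in LFD-sham kidneys. The diet differences were 0.24 in sham (95% interval -0.48 to 0.96, adjusted p = 0.677) and 0.42 in uninephrectomised mice (-0.25 to 1.08, adjusted p = 0.400). In uninephrectomised mice it passed with array weights (0.84, adjusted p = 0.00775). Surgery gave -0.14 on the low-fat diet (adjusted p = 1.00) and 0.03 on the high-fat diet.

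Il18, a cytokine precursor held ready in tubule epithelium, did not pass in any comparison. Its level was -2.35, -2.49, -2.31 and -2.04 on HFD-UNX arrays, -2.43, -2.29 and -1.58 on HFD-sham arrays, -2.34, -2.14, -2.22 and -2.37 on LFD-UNX arrays, and -2.31, -2.48, -2.45 and -2.03 on LFD-sham arrays. HFD-sham replicate 3 was the highest array, and the others of its group lay among the low-fat ones. The diet differences were 0.22 in sham (95% interval -0.19 to 0.62, adjusted p = 0.481) and -0.03 in uninephrectomised mice (-0.41 to 0.34, adjusted p = 0.921). Surgery gave 0.05 on the low-fat diet (-0.33 to 0.42, adjusted p = 1.00) and -0.20 on the high-fat diet.

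Il1b, the precursor of interleukin-1 beta that inflammatory signals induce, fell in mice with both treatments against mice with neither. Its level was -3.25, -3.84, -3.15 and -3.80 on the HFD-UNX arrays, against -2.74, -1.99, -3.36 and -2.03 on the LFD-sham arrays. The groups overlapped through LFD-sham replicate 3. The means were -3.51 ± 0.36 in HFD-UNX and -2.53 ± 0.65 in LFD-sham kidneys (SD, n = 4 each), a difference of -0.98 (SE 0.32, 95% interval -1.67 to -0.29, limma adjusted p = 0.0459). The call did not hold without LFD-sham replicate 1 (-1.05, adjusted p = 0.0709), 2 (-0.80, 0.129) or 4 (-0.81, 0.120), or without HFD-UNX replicate 1 (-1.07, 0.0616), 2 (-0.87, 0.124) or 4 (-0.88, 0.101). With normexp the difference was -0.56 (adjusted p = 0.413), with array weights -0.80 (0.101), and with the slide as a random effect the adjusted p was 0.406.

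Each single step of the design gave a lower Il1b mean without passing. Its level was -3.23, -3.08 and -2.41 on the HFD-sham arrays and -3.45, -2.93, -2.38 and -3.27 on the LFD-UNX arrays. The diet difference was -0.38 in sham mice (95% interval -1.12 to 0.37, adjusted p = 0.504) and -0.50 in uninephrectomised mice (-1.19 to 0.19, adjusted p = 0.318). Surgery gave -0.48 on the low-fat diet (-1.17 to 0.21, adjusted p = 1.00) and -0.60 on the high-fat diet. These differences share arrays with each other and with the difference of -0.98. The interaction was -0.13 (adjusted p = 1.00).

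**Figure D3:**
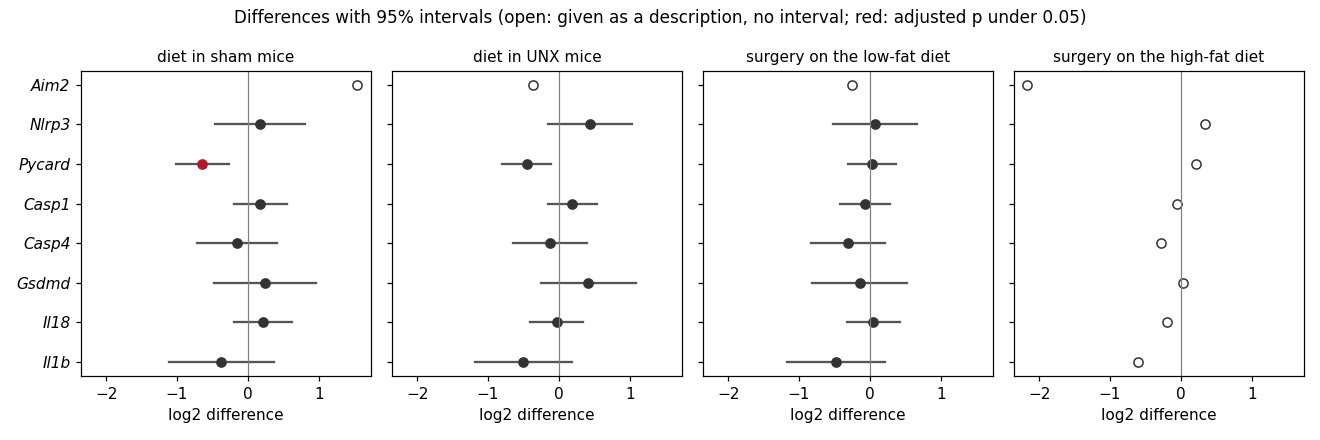
Log2 difference of each inflammasome gene (horizontal axis) in 4 comparisons, high-fat minus low-fat or UNX minus sham, with 95% intervals; open circles are differences given as a description with no interval (all of Aim2, and surgery on the high-fat diet), and red marks an adjusted p under 0.05. Pycard at -0.64 in sham mice is the red point, while its interval in UNX mice (-0.80 to -0.11) leaves out 0 although the adjusted p is 0.0733.

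Read over the 8 genes, diet gave few calls. In sham mice 2 of 8 passed, 1 higher (Aim2, from which nothing is read) and 1 lower (Pycard), where 13.9% of all genes tested passed, 6.48% higher and 7.41% lower; the same 2 were the members with an unadjusted p under 0.05, as 30.2% of all genes. In uninephrectomised mice 0 of 8 passed by limma and 1 had an unadjusted p under 0.05 (Pycard), where 14.2% of all genes passed (7.67% higher, 6.52% lower) and 29.7% were under 0.05 unadjusted. With HFD-UNX against LFD-sham 1 of 8 passed (Il1b, lower), where 19.5% of all genes passed (10.4% higher, 9.14% lower). There 3 members had an unadjusted p under 0.05 (Il1b, Pycard and Aim2, the last not read), as did 34% of all genes. With 8 genes, counts of 2 (1 of them Aim2), 0 and 1 are near those shares, and nothing is read from them. The median difference of the 8, Aim2 among them, was 0.17, -0.08 and -0.21 in these comparisons, against -0.02, -0.01 and -0.01 over all genes.

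Surgery gave none. On the low-fat diet 0 of 8 passed and 0 had an unadjusted p under 0.05, where limma called 0.00623% of all genes (1 gene) and 519 genes (3.23%) had an unadjusted p under 0.05. The median was -0.11 over the 8 and 0.01 over all genes. On the high-fat diet 0 of 8 passed, as did 0% of all genes, with 747 genes (4.65%) at an unadjusted p under 0.05, 1 of them a member (Aim2, the gene that the choice rests on). For the interaction of diet and surgery 0 of 8 passed, again 0% of all genes, with 219 genes (1.36%) at an unadjusted p under 0.05, 1 of them again Aim2.

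The wider pathway held 59 other listed genes in 4 groups (sensors, priming factors and regulators, pore genes, and the receptors and inhibitors of the interleukin-1 family), of which 50 were measured. Among the sensors Nlrp12, an NLR protein described as a brake on NF-kappaB signalling, rose on the high-fat diet. It averaged -3.90 ± 0.43 in HFD-sham kidneys (n = 3), against -5.09 ± 0.34 in LFD-sham kidneys (SD, n = 4), where 2 of 4 arrays measured it, a difference of 1.19 (SE 0.23, adjusted p = 0.00578). In uninephrectomised mice it averaged -3.60 ± 0.29 in HFD-UNX and -4.53 ± 0.17 in LFD-UNX kidneys (SD, n = 4 each), a difference of 0.93 (SE 0.21, adjusted p = 0.0114). With both treatments against neither it differed by 1.49 (adjusted p = 0.000602). Nlrc4, the partner of the NAIP sensors of bacterial flagellin and secretion systems, was lower in HFD-UNX (-3.22 ± 0.16) than in LFD-UNX kidneys (-2.50 ± 0.13, SD, n = 4 each), by -0.72 (adjusted p = 0.0178). In all, 1 of 14 measured sensors passed in sham mice and 2 of 14 in uninephrectomised mice, where 13.9% and 14.2% of all genes did.

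Among 24 priming factors and regulators, 1 passed between diets in sham mice and 0 in uninephrectomised mice, where 13.9% and 14.2% of all genes did. Cybb, the phagocyte NADPH oxidase subunit, averaged -2.29 ± 0.71 in HFD-sham kidneys (n = 3) and -3.92 ± 0.16 in LFD-sham kidneys (SD, n = 4), 1.63 higher (SE 0.50, adjusted p = 0.0442). It was wide in HFD-UNX kidneys, from -3.71 to -1.36, against -4.15 to -3.60 in LFD-UNX kidneys, and did not pass there (1.28, adjusted p = 0.0802). With both treatments against neither Tlr4, the lipopolysaccharide receptor, fell by 0.51 (adjusted p = 0.0118), and Irf1, an interferon regulatory factor, fell by 0.45 (adjusted p = 0.0376). Irf1 averaged 1.40 ± 0.20 in HFD-UNX and 1.86 ± 0.16 in LFD-sham kidneys (SD, n = 4 each).

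The pore genes gave 2 lower calls of 5 in sham mice, where 7.41% of all genes were called lower, and 0 with the slide as a random effect. Ninj1, whose product ruptures the membrane of dying cells, averaged 4.22 ± 0.11 in HFD-sham (n = 3) and 5.07 ± 0.17 in LFD-sham kidneys (SD, n = 4), lower by -0.85 (adjusted p = 0.0137). It was also lower in HFD-UNX (4.30 ± 0.42) than in LFD-UNX kidneys (4.94 ± 0.18, SD, n = 4 each), by -0.65 (adjusted p = 0.0298). Gsdme, the gasdermin cut by caspase-3, averaged -0.42 ± 0.18 in HFD-sham and 0.40 ± 0.20 in LFD-sham kidneys, lower by -0.81 (adjusted p = 0.0257), and by -0.57 in uninephrectomised mice without passing (adjusted p = 0.0750). Of 7 measured genes of the interleukin-1 family axis, none passed between diets in limma and 0 (sham) and 1 (uninephrectomised) had an unadjusted p under 0.05. The lowest p in sham mice were those of the interleukin-18 receptor chain Il18r1 (0.58, adjusted p = 0.187) and of Il18bp, the secreted inhibitor of interleukin-18 (0.36, adjusted p = 0.216). Il18bp was higher with both treatments than with neither by 0.56 (adjusted p = 0.0346). Il1a, Il1rn and Il18rap were on the array and were left out as too dim.

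Counted together, 4 of these 50 genes passed in sham mice (2 higher, 2 lower) and 3 in uninephrectomised mice (1 higher, 2 lower), below the 13.9% and 14.2% of all genes. With both treatments against neither 6 passed (2 higher, 4 lower), where 19.5% of all genes did (10.4% higher, 9.14% lower). By limma 0 passed for surgery on either diet or for the interaction, where 1 (low-fat), 3 (high-fat) and 0 (interaction) had an unadjusted p under 0.05. On the low-fat diet the lowest p among the sensors were those of Nlrp12 (0.56) and Nlrc4 (0.37), both at an adjusted p of 1.00. On the high-fat diet Irf1 (-0.45) and Nfkbia, the inhibitor of NF-kappaB (-0.40), had the lowest p among the regulators, both at an adjusted p of 0.999. With the slide as a random effect 0 of the 50 passed between diets. Leaving out 1 array changed the counts: 2 passed in sham mice without LFD-sham replicate 2, 3 or 4 and 1 without HFD-sham replicate 2, and in uninephrectomised mice 1 passed without LFD-UNX replicate 1, 8 without HFD-UNX replicate 3 and 5 without HFD-UNX replicate 4. With both treatments against neither 3 passed without HFD-UNX replicate 1 or 2.

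**Figure D4:**
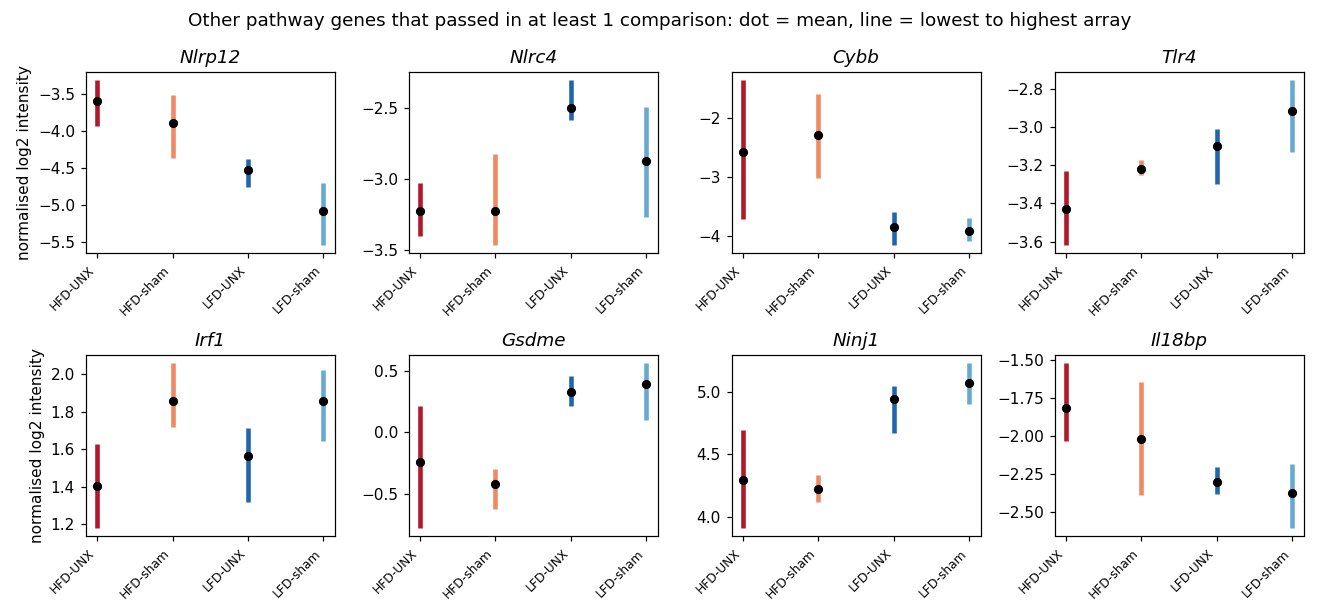
Normalised log2 intensity (vertical axis, scaled separately for each gene) of the 8 other pathway genes that passed in at least 1 comparison, by group; dots are means and lines run from the lowest to the highest array. Nlrp12 and Cybb have higher means in the high-fat groups, and Ninj1 and Gsdme lower ones.

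Aim2 is an interferon-induced gene, so interferon-stimulated genes were set beside it. Of 12 listed, 11 were on the array, all well above background on all 15 arrays, and 0 passed by limma in any comparison (0 in each diet comparison at an unadjusted p under 0.05, and 1 with both treatments against neither). Their summed level, in units of the array's 75th percentile, was 27.7 on HFD-UNX replicate 1 and 6.94 to 10.3 on the other 14 arrays. A sum of this kind, here and below, weighs the brightest probes of a list most. Aim2 was not well above background on HFD-UNX replicate 1, nor on any other array outside the HFD-sham group. The interferon sums were 8.19 to 10.2 on the 3 HFD-sham arrays, 8.78 to 9.93 in LFD-UNX and 8.13 to 10.3 in LFD-sham kidneys. The part of interferon in the Aim2 values was not tested.

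Markers of leukocytes, which carry much of the pathway, moved in part with diet. Of 10 measured macrophage markers 0 passed by limma in either diet comparison, where 13.9% (sham) and 14.2% (uninephrectomised) of all genes did. At an unadjusted p under 0.05 there were 0 in sham and 2 in uninephrectomised mice. The summed level of the macrophage markers was 16.9 to 26.0 in HFD-UNX, 17.2 to 27.9 in HFD-sham, 21.2 to 23.1 in LFD-UNX and 20.6 to 28.2 in LFD-sham kidneys. Of 4 measured dendritic cell markers 1 was called higher in each diet comparison, where 6.48% (sham) and 7.67% (uninephrectomised) of all genes were. Nothing is read from a count of 1. Their summed level was 0.687 to 1.19 in HFD-UNX, 0.796 to 1.07 in HFD-sham, 0.592 to 1.00 in LFD-UNX and 0.786 to 1.12 in LFD-sham kidneys. The summed level of the neutrophil markers moved in the direction of Pycard and Il1b, though not every marker did. It was 1.21 to 2.06 in HFD-UNX, 1.56 to 1.86 in HFD-sham, 1.96 to 3.91 in LFD-UNX and 2.91 to 5.31 in LFD-sham kidneys. Of 6 measured neutrophil markers, S100a8 and S100a9 were lower on the high-fat diet in sham mice (-2.22 and -1.95, adjusted p = 0.00204 and 0.00402), and Elane was higher (0.77, adjusted p = 0.0255). Of all genes 7.41% were called lower and 6.48% higher in that comparison. Mpo, Retnlg and Cxcr2 did not pass there, and Mpo and Cxcr2 were below background on some arrays of every group. In uninephrectomised mice 2 of the 6 were called lower and 0 higher, where 6.52% and 7.67% of all genes were. With both treatments against neither, 5 of the 6 passed, 4 lower and 1 higher, where 9.14% of all genes were called lower and 10.4% higher. Ly6g was not on the array, and no marker was listed at 0. The part of these markers in the Pycard and Il1b results was not tested.

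Of 5 B-cell markers 2 passed in sham mice and 3 in uninephrectomised mice, and of 7 T-cell markers 1 (Cd4) and 3. All were higher on the high-fat diet, where 6.48% of all genes were called higher in sham and 7.67% in uninephrectomised mice. A count of 1 of 7 is near that share, and nothing is read from it. Cd27, a T-cell marker, was well above background on 4 of 4 HFD-UNX and 3 of 3 HFD-sham arrays. Cd79a, a B-cell marker, was so on 3 of 4 and 3 of 3. On the low-fat arrays each was so on 0. They passed the filter on dim probes through high-fat arrays alone, so a higher level of either there is no support for a change. The summed level of the B-cell markers was 0.830 to 1.52 in HFD-UNX and 1.08 to 1.45 in HFD-sham kidneys, against 0.493 to 0.549 in LFD-UNX and 0.370 to 0.818 in LFD-sham kidneys. That of the T-cell markers was 3.24 to 3.67 in HFD-UNX and 2.32 to 3.45 in HFD-sham, against 1.85 to 2.26 in LFD-UNX and 1.99 to 2.24 in LFD-sham kidneys. Both sums overlapped between the high-fat groups. Cd4 and Cd3e were the brightest T-cell markers and weigh most in that sum. Lck averaged -1.45 in HFD-UNX, -1.46 in LFD-UNX, -1.25 in HFD-sham and -1.22 in LFD-sham kidneys. The diet difference was above 0 for 6 of 7 T-cell markers in sham and 7 of 7 in uninephrectomised mice. The part of these markers in the Aim2 values was not tested.

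Of 6 measured adipocyte markers, 1 passed for diet in sham mice (Cfd, the serine protease adipsin, -2.90, adjusted p = 0.0363), where 13.9% of all genes did. There 6 of 6 were below 0 and 4 had an unadjusted p under 0.05, with a median of -2.18. For diet in uninephrectomised mice 5 of 6 were above 0, with a median of 0.15. There 1 passed, higher (Lep), where 7.67% of all genes did, and 2 had an unadjusted p under 0.05. Lep averaged -4.71 in HFD-UNX and -7.30 in LFD-UNX kidneys. It was well above background on 4 of 4 HFD-UNX and 0 of 4 LFD-UNX arrays, so its call is set against values below background and nothing is read from it. For surgery on the high-fat diet 0 of 6 passed by limma, 2 had an unadjusted p under 0.05 and 6 of 6 were above 0, with a median of 1.67. Their summed level was 8.86 to 19.4 in HFD-UNX, 6.87 to 17.4 in HFD-sham, 8.67 to 19.2 in LFD-UNX and 15.3 to 28.2 in LFD-sham kidneys, with the high-fat groups overlapping. Their part in the Pycard and Aim2 values was not tested.

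The genes most like 4 of the members over the 15 arrays were found by the mean absolute difference of z-scores (each gene's values minus their mean, over their SD), where 0 would be the same pattern. For Il1b these were Egr1 at 0.408, Nr4a1 at 0.410 and Tnfaip3 at 0.413, of which Egr1 and Nr4a1 are immediate-early transcription factors and Tnfaip3 encodes A20, an inhibitor of NF-kappaB. Egr1 averaged -2.38 ± 0.47 in HFD-UNX, -0.47 ± 0.88 in HFD-sham, -2.03 ± 0.91 in LFD-UNX and -0.80 ± 1.19 in LFD-sham kidneys (SD, n = 4, 3, 4 and 4). LFD-sham replicates 2 and 4 and HFD-sham replicate 3 were high for all 4 genes, and LFD-sham replicate 3 was the lowest of its group for Il1b, Egr1 and Nr4a1. On LFD-UNX replicate 3 the z-score of Il1b was 1.06, against 0.51 for Egr1 and 0.16 for Nr4a1 and Tnfaip3. The 3 genes were picked for likeness on these same arrays, so what they share with Il1b is no separate support.

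**Figure D5:**
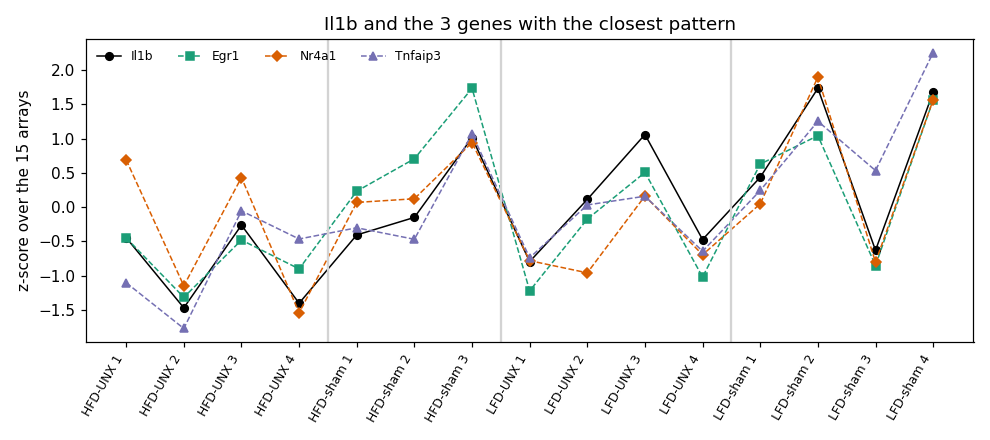
Z-scores over the 15 arrays (vertical axis) of Il1b and of the 3 genes with the closest pattern, Egr1, Nr4a1 and Tnfaip3, array by array; vertical lines part the groups and the joining lines only guide the eye. The 3 genes were picked for their likeness to Il1b on these same arrays. Shared high arrays, among them LFD-sham replicates 2 and 4, therefore follow from the choice.

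For Casp1 the genes named are Unc93b1 at 0.315, which carries Toll-like receptors to endosomes, and F8 (coagulation factor VIII) at 0.383. For Aim2 they were Psg17 at 0.464, Zfp688 at 0.516 and Cmtm7 at 0.535. Psg17 was well above background on 1 of 4 HFD-UNX and 2 of 3 HFD-sham arrays and on 0 of 8 low-fat arrays. For Nlrp3 they were Rhox2h at 0.432, Olfr1413 at 0.467 and Prl6a1 at 0.476, and of these Olfr1413 and Prl6a1 were well above background on 5 and 6 of the 15 arrays. All points share the arrays' depth and scaling.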

How the data were processed

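The intensity signals of the 15 scans come from Agilent Feature Extraction, given as 10.7 by the submitters' processing notes (the file headers have 10.7.3.1). The deposited processed intensity is background-subtracted and detrended within an array, with no scaling between arrays. A deposited table holds those intensities rounded (0.995 to 1.005 times). From each log2 signal the array's 75th percentile was subtracted. Spots marked as outliers were left out (74 to 273 per array), and none was saturated. Of 39429 non-control probes, 27234 were named through RefSeq accessions. The dim filter kept 28244 probes, giving 16055 genes. Groups were compared on all arrays with limma 3.58.1 (statmod 1.5.0, R 4.3.3), two-sided, with Benjamini-Hochberg adjustment over all genes and a threshold of 0.05. The scripts were tested on simulated data. The number of arrays limits precision. The members and lists were chosen with earlier results of these data known. Named genes were all members, up to 4 pathway genes per list and direction that passed (or those with the lowest p), and the 3 nearest patterns of 4 members (1 of them is not reported here); marker genes were named after their values were seen. Normexp used the median spot signal, as the mean signal is not used here. The fixed slide block was coded around the mean of slides 1 and 2, a coding set after the data were seen. Same-numbered mice of the high-fat groups correlated over 0.1 in all 3 pairs, those of other groups did not in all. Alternatives changed normalization, background, filter, probe, slide and replicate blocks, weights, threshold and single arrays.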

Additional observations from a re-analysis of the deposited data

Results flagged for a closer look

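Of 24 groups of 4 arrays checked (8 genes in 3 groups), Aim2 in LFD-sham kidneys held an array far from the others. LFD-sham replicate 1 was at -6.63 on the normalised log2 scale, against -7.98 to -7.92 on the other 3 arrays of the group. Its gap to the nearest array was 0.953 of the range of the group, above the critical value of Dixon's test for 4 arrays. Chance gives such an array in about 1 of 20 groups. The spot was not well above background on that array and stood at 1.44 times the median negative control. Without this array the measured Aim2 interaction of diet and surgery was -2.25 in place of -1.92, and the difference for surgery on the low-fat diet was 0.08 in place of -0.25.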

How the results depend on the processing

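For diet in sham mice, 2 of the 8 inflammasome genes passed (Aim2 and Pycard), and 0 did with normexp or with the slide as a random effect. With probes well above background on every array 1 passed (Pycard). With only the groups compared 1 passed, and without single arrays 1 to 2. Wherever the count fell to 1 in these last fits, the gene left was Aim2, from which nothing is read. The mean over all probes gave 3, with Nlrp3 added, from which nothing is read either. Of the 50 other pathway genes 4 passed; 0 did with normexp or slide as a random block, 9 with no filter on dim probes, 10 with slides 1 and 2 as a fixed block, 11 with array weights, and 1 to 5 without single arrays. For diet in uninephrectomised mice 0 inflammasome genes passed, against 1 with the mean over all probes (Nlrp3, from which nothing is read). Pycard passed with only the groups compared, with the fixed slide block or at a threshold of 0.1, and 2 passed with array weights (Pycard and Gsdmd). Of the pathway genes 3 passed there, against 5 with cyclic loess, 0 with normexp or slide as a random block, 13 with the fixed slide block, 23 with array weights, 9 at a threshold of 0.1 and 1 to 8 without single arrays. For surgery on the high-fat diet 1 inflammasome gene passed with cyclic loess and at the threshold of 0.1, and for the interaction 0 to 1 without single arrays; that gene is Aim2, chosen by these arrays, and nothing is read from it. With both treatments against neither 1 inflammasome gene passed (Il1b), and 0 did with normexp, slide as a random block or only the groups compared. The fixed slide block or a threshold of 0.1 gave 2 (Il1b and Pycard), and leaving out single arrays 0 to 1. Array weights gave 3 (Pycard, Gsdmd and Aim2) and the mean over all probes 1 (Nlrp3). Il1b was lost in both of these, and nothing is read from Aim2 or Nlrp3 there. Of the pathway genes 6 passed, against 1 with normexp, 10 with no filter, 0 with slide as a random block, 20 with array weights and 3 to 8 without single arrays. Aim2 for diet in sham mice was -0.11 with normexp, a small value whose sign is not read. For single genes, the settings that keep all arrays left 571 values the same in direction and side of the threshold, moved 29, lost 10 calls, gained 15 and reversed 1. Leaving out single arrays left 369 the same, moved 43, lost 11 calls and gained 1. The causes were not tested.

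Of 21 pairs of same-numbered mice in different groups, 5 correlated over 0.1 in their deviations (from -0.15 to 0.43), and 4 correlated best with their own number. All 3 pairs between the high-fat groups were over 0.1 (0.43, 0.12 and 0.33; pairs 1 and 3 share a slide), and the replicate block changed no call for surgery on the high-fat diet. With the replicate number as a block, the call of Il1b for both treatments against neither was lost (adjusted p = 0.0701), leaving 0 inflammasome genes.

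Signal over background limits Aim2, which 12 of 15 arrays did not measure, and the dimmer Nlrp3 probe. Differences between diets cannot be told apart from scan day, nor surgery on the low-fat diet from slide.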
